A study of Mus musculus with 12 samples.

Results

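The 40 genes described here encode proteins that copy DNA in S phase (20 genes) or that carry out mitosis (20 genes). They were chosen by name, as standard members of these processes, with earlier results of these data known. Each gene was read from 1 probe set, the brightest on average over all arrays among those that carry its symbol alone. Of the 40 genes, 39 were measured among 18193 genes in all, 20 for replication and 19 for mitosis. The exception was Ccnb1, which encodes cyclin B1 and is not named by any probe set used here.

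Affymetrix arrays, 12 in number, measured total RNA from the mouse embryonic stem (ES) cell line TBV2, wild type and of strain 129/SvP, so the results stand for 1 line. All cultures were grown on gelatin without feeder cells for 5 days, in medium that held leukemia inhibitory factor (LIF), the cytokine that keeps mouse ES cells pluripotent, and no non-essential amino acids. Control cells (ESCs) received no addition, and proline-induced cells (PiCs) received 500 µM L-proline. Each group has 2 numbered biological replicates of 3 arrays each, lettered a to c with no explanation in the labels, so the 3 arrays were averaged and n = 2 per group. Since the labels do not say how replicates were kept apart, the p-values measure only the spread between these means, which may be partly technical.

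DNA replication starts when the origin recognition complex, Cdc6 and Cdt1 load the Mcm2-7 helicase onto origins. The GINS complex and Mcm10 then help to start the helicase, and polymerases alpha and epsilon, the sliding clamp PCNA and its loader RFC build the new strands. Mitosis is driven by CDK1 with cyclins A and B and by the Aurora and Polo kinases, and the spindle checkpoint (Bub1, BubR1, Mad2 and Mps1) holds chromosome segregation until each kinetochore is attached. Mouse ES cells divide fast, spend much of their cycle in S phase and express these genes at high levels. E2F proteins bind the promoters of many replication genes, while many mitosis promoters hold a cell cycle homology region (CHR), to which the DREAM and MuvB complexes bind, near CCAAT boxes.

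The promoters of the 2 classes are shown first because the genes differ there in a feature that did not enter their choice. The motifs searched were those already known for each class, as described above, so a difference between the classes was foreseen. RefSeq windows from 250 bases before to 50 bases after the start site (GRCm38.p6) were searched on both strands for the E2F core (TTCCCGC or TTGGCGC), for the CHR (TTTGAA or TTCGAA) and for CCAAT. No motif word contains another, although an E2F core and a CCAAT box can share bases. The mitosis windows include that of Ccnb1. Windows existed for 33 of the 40 genes, and Aurkb, Ccna2, Gins1, Gins2, Kif20a, Mcm4 and Pole had no entry. For each class, the upstream parts of 3 windows that hold its motif are printed in the gene's own direction, with the motif on either strand in capitals. On the opposite strand TTCCCGC reads as GCGGGAA while TTGGCGC reads as GCGCCAA, and TTTGAA reads as TTCAAA. The replication promoters carry the E2F core and come from Pola1 (chrX:93632210-93632384, minus strand), which encodes the catalytic subunit of polymerase alpha, Mcm5 (chr8:75109285-75109426, plus strand), a helicase subunit, and Cdc6 (chr11:98907953-98908079, plus strand), a helicase loader.
Pola1: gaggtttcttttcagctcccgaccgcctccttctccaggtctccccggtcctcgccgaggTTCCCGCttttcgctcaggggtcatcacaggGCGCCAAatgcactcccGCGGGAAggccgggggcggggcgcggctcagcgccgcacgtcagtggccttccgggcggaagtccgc
Mcm5: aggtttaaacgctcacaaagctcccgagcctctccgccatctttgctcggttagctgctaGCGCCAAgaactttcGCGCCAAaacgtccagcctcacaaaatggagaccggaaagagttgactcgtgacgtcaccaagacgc
Cdc6: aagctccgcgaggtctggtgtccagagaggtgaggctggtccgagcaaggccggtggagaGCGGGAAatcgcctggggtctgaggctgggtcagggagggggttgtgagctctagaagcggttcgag
The mitosis promoters carry the CHR and come from Bub1b (chr2:118597963-118598088, plus strand), which encodes the checkpoint protein BubR1, Top2a (chr11:99024190-99024272, minus strand), which encodes topoisomerase II alpha, and Cdc20 (chr4:118437344-118437421, minus strand), which encodes the activator of the anaphase-promoting complex.
Bub1b: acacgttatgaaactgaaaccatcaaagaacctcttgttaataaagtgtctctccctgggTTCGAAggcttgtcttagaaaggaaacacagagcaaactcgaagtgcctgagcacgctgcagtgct
Top2a: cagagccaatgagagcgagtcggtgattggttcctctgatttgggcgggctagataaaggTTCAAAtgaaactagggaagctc
Cdc20: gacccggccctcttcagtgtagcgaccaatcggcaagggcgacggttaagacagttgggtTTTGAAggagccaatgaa
The CHR of Cdc20 begins at position -18, counted from the start site. Top2a has 4 CHR words in its window, at positions -179, -140, -120 and -23, of which the last lies in the printed stretch. Bub1b has its printed CHR at position -188 and a second one after the start site, at position 41, and Pola1 has a further E2F core at position 16.

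An E2F core was present in 11 of 18 windows of the replication genes (61.1%), in 2 of 17 windows of the mitosis genes (11.8%) and in 6.81% of all 32851 RefSeq windows. The CHR had the opposite distribution, with 12 of 17 mitosis windows (70.6%), 4 of 18 replication windows (22.2%) and 19.2% of all windows. A CHR within 50 bases of the start site was found in 12 of 17 mitosis windows, against 5.31% of all windows. In 6 of these 12 genes a CHR lay wholly before the start site. CCAAT was frequent in both classes, in 72.2% of replication windows and 76.5% of mitosis windows, against 37.4% of all windows. These counts describe letters in a window and not binding. The genes outside the 40 showed the same order for the E2F core and the CHR. Among 49 windows from 40 further replication genes and 58 from 51 further mitosis genes, an E2F core was in 46.9% and 24.1%. A CHR was in 14.3% and 65.5%. CCAAT was in 40.8% and 72.4%, so in the further replication genes it was near the share of all windows (37.4%).

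**Figure D1:**
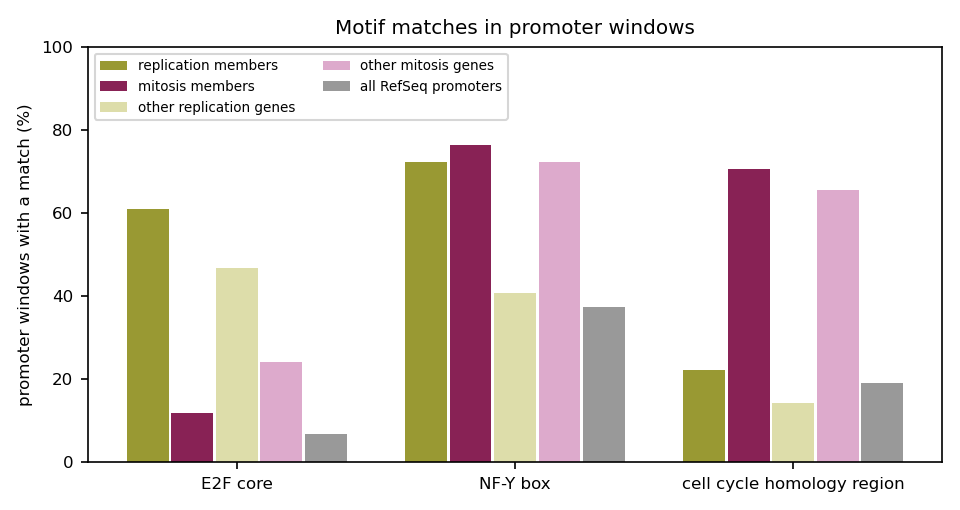
Share of promoter windows, in percent, that hold a CHR, a CCAAT box or an E2F core, for the replication and mitosis genes, for the further genes of each process and for all RefSeq promoters. The E2F core is most frequent in the replication genes (61.1%) and the CHR in the mitosis genes (70.6%). CCAAT is frequent in both, but in the further replication genes (40.8%) it is near the share of all promoters (37.4%).

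After 5 days of L-proline no replication or mitosis gene differed from control cells beyond the test's threshold, and for 36 of 39 a change of 2-fold or more lay outside the 95% interval. In limma's test with Benjamini-Hochberg adjustment over all 18193 genes, 0 of 20 replication genes and 0 of 19 mitosis genes passed an adjusted p of 0.05, against 4.36% of all genes (3.03% higher and 1.34% lower). All 39 genes lay above the dim level of these arrays, the 40th percentile of all probe sets (5.36, log2), and 5.74% of genes above that level passed. At an unadjusted p under 0.05, Orc1 and Pola1 were lower among the replication genes, Bub1b was lower among the mitosis genes and none was higher. In all genes these shares were 22.1% in either direction, 12.7% higher and 9.32% lower. The median log2 fold change, proline minus control, was -0.09 over the replication genes and -0.04 over the mitosis genes, and -0.03 over all genes. Leaving out 1 biological replicate gave medians from -0.17 to -0.0344 for replication and from -0.17 to 0.16 for mitosis, the latter positive except without proline replicate 2. Single genes ranged from -0.63 to 0.47 for replication and from -0.39 to 0.32 for mitosis.

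The size of a change that these data still allow can be read from the 95% intervals of limma's fit. The interval lay within 2-fold in either direction for 19 of 20 replication genes and 17 of 19 mitosis genes, against 78.3% of all genes and 72.1% of genes above the dim level. The exceptions were Orc1, Aurkb and Ndc80. Negative log2 fold changes were seen in 14 of 20 replication genes and 10 of 19 mitosis genes, against 56.1% of all genes. Both proline replicates lay below both control replicates for 10 replication genes and above them for 1, and for 5 and 4 mitosis genes. All genes gave 28.7% below and 24% above, 52.7% in all, so the share of separated genes was near the background, and among the replication genes most of them were on the low side.

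**Figure D2:**
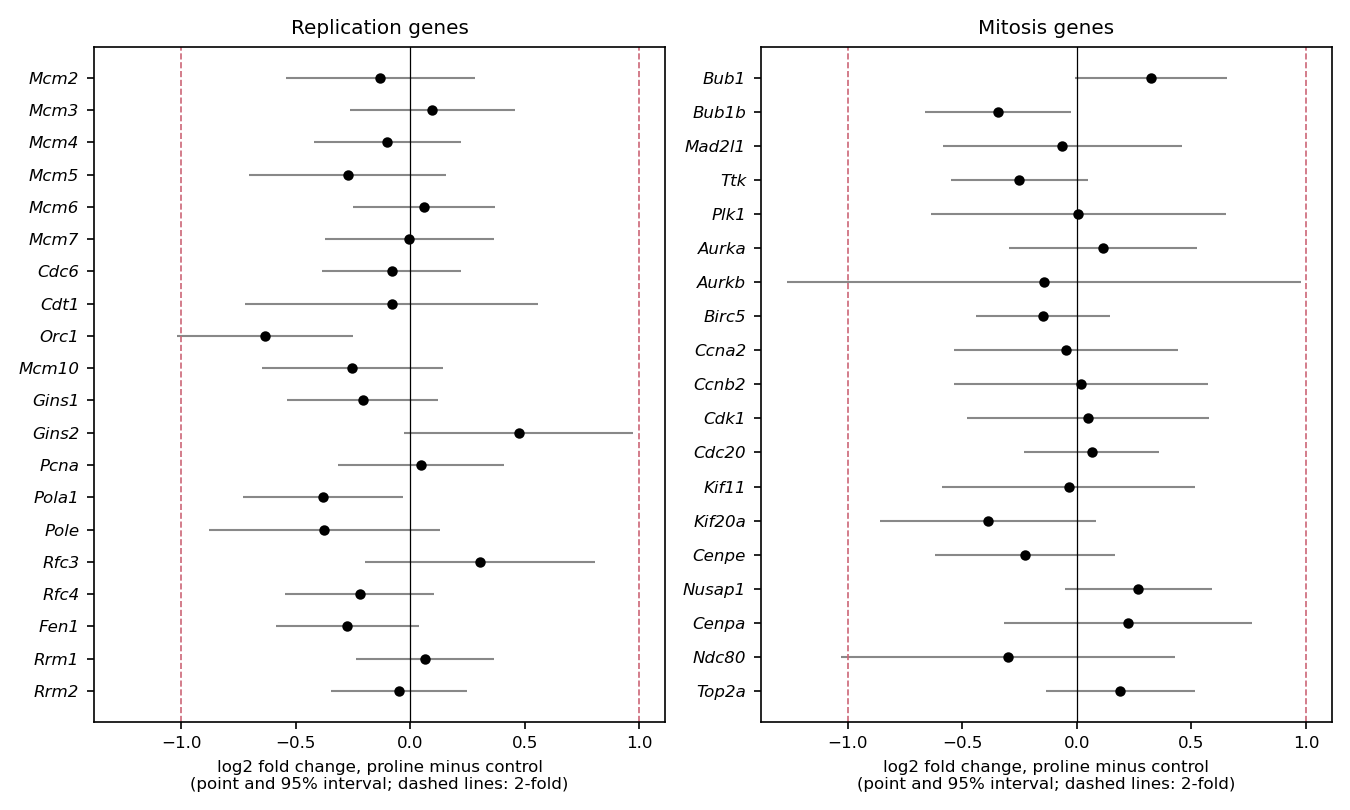
Log2 fold change, proline minus control, of each of the 39 genes, with the 95% interval of limma's fit as a bar (2 biological replicates per group) and lines at 2-fold in either direction. No gene passed an adjusted p of 0.05, and 36 of 39 intervals stay within the lines.

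Among the 9 genes of origin licensing, the changes ran from -0.63 to 0.10, and Orc1, the largest subunit of the origin recognition complex, stood at the low end. Orc1 had log2 signals of 9.97 and 10.08 in the control replicates and of 9.26 and 9.53 in the proline replicates. Both proline values were below both control values. The log2 fold change was -0.63 ± 0.15 (limma's standard error, here as below), with a 95% interval of -1.02 to -0.25 and an adjusted p of 0.0939 in limma. Its other probe set gave -0.97. Orc1 passed in limma with a random block over the 12 arrays (adjusted p = 0.00328) and with the replicate number as a block (0.0465). Those settings called 3987 and 2039 of all 18193 genes, against 794 in the main fit. The adjusted p in limma ran from 0.00328 to 0.116 over the alternatives that kept every biological replicate.

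The Mcm2-7 helicase subunits, which Orc1 helps to load, had log2 signals from 11.97 for Mcm2 in proline replicate 2 to 13.64 for Mcm7 in control replicate 1. Their log2 fold changes were -0.13 for Mcm2, 0.10 for Mcm3, -0.10 for Mcm4, -0.27 for Mcm5, 0.06 for Mcm6 and -0.0028 for Mcm7, none past the threshold. Cdc6 and Cdt1, the other loading factors, both had -0.08. Cdt1 varied more within groups than between them, with 12.58 and 12.18 in controls and 12.56 and 12.04 after proline.

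Origin firing held the largest positive change of the 39 genes. Gins2, a subunit of the GINS complex, had 10.02 and 9.59 in controls and 10.38 and 10.18 after proline. Both proline values were above both control values, with a log2 fold change of 0.47 ± 0.19 and an adjusted p of 0.248 in limma. The random block, which called 3987 of all 18193 genes, gave 0.0375 in limma. Over the alternatives that kept every biological replicate, the adjusted p ran from 0.0375 to 0.262. Gins1, of the same complex, had -0.21 and Mcm10 had -0.25, with both proline values below both control values in each.

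At the fork, 4 of 6 genes had lower means after proline. Pola1, shown above with its E2F cores, had 10.04 and 10.10 in controls and 9.80 and 9.58 after proline, a log2 fold change of -0.38 ± 0.13 with an adjusted p of 0.196 in limma. Fen1, the nuclease that trims Okazaki fragments, had 11.93 and 11.81 against 11.64 and 11.56, a change of -0.27 ± 0.12 with an adjusted p of 0.279. The groups did not overlap for either gene. Pole, the catalytic subunit of polymerase epsilon, had -0.37 and Rfc4 -0.22, whereas Rfc3 had 0.30 and Pcna, the clamp, 0.05.

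The genes of deoxynucleotide supply had small differences on the probe sets used. Rrm1, the large subunit of ribonucleotide reductase, had 11.27 and 11.36 in controls and 11.35 and 11.41 after proline, a change of 0.06 ± 0.11. Its partner Rrm2 had -0.05. The values of the groups overlapped for both. Other probe sets gave 0.32 and -0.07 for Rrm1 and 0.26 and 0.05 for Rrm2.

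**Figure D3:**
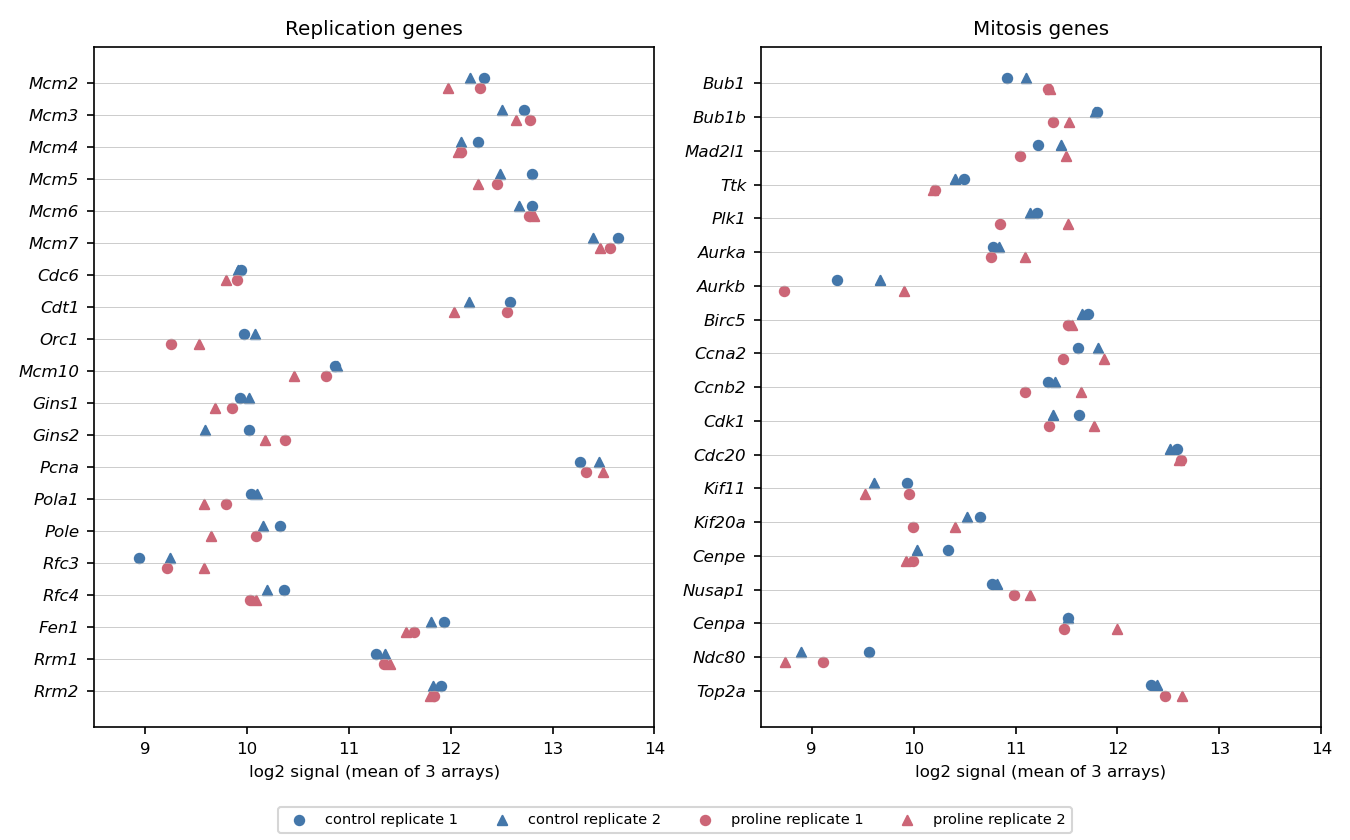
Log2 signal of the 39 genes in the 4 biological replicates, each the mean of 3 arrays, with controls in blue, proline in red, replicate 1 as circles and replicate 2 as triangles. Orc1 lies lower in both proline replicates (9.26 and 9.53) than in both control replicates, and Aurkb is widest between the proline replicates (8.73 and 9.90).

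The spindle checkpoint held the mitosis genes with the smallest p in each direction. Bub1b had log2 signals of 11.80 and 11.78 in controls and 11.37 and 11.52 after proline, a change of -0.34 ± 0.12 with an adjusted p of 0.199 in limma. Bub1, a kinetochore kinase of the same checkpoint, had 10.91 and 11.10 in controls and 11.32 and 11.34 after proline, a change of 0.32 ± 0.13 with an adjusted p of 0.234. Both proline replicates were below both control replicates for Bub1b and above them for Bub1. The random block gave adjusted p of 0.0200 for Bub1b and 0.0429 for Bub1 in limma, past the threshold for both. That setting called 3987 of all 18193 genes. Over the alternatives that kept every biological replicate, the ranges in limma were 0.0200 to 0.222 and 0.0429 to 0.391. Ttk, which encodes the checkpoint kinase Mps1, had 10.50 and 10.41 in controls and 10.21 and 10.19 after proline, a change of -0.25 ± 0.11 with an adjusted p of 0.295 in limma. Mad2l1, the checkpoint's Mad2 protein, had -0.06, and its groups overlapped.

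Among spindle motors and spindle proteins, Kif20a and Nusap1 differed in opposite directions. Kif20a, a kinesin of the central spindle, had 10.65 and 10.53 in controls and 9.99 and 10.40 after proline, a change of -0.39 ± 0.18 with an adjusted p of 0.304 in limma. Nusap1, which binds and bundles spindle microtubules, had 10.77 and 10.82 in controls and 10.98 and 11.14 after proline, a change of 0.27 ± 0.12 with an adjusted p of 0.298. In each of these genes both proline replicates lay on 1 side of both control replicates. Cenpe, a kinetochore motor, had -0.23 and Kif11, which pushes spindle poles apart, -0.04.

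Kinases, cyclins and chromosome proteins of mitosis had log2 fold changes from -0.30 to 0.22. Birc5, the survivin subunit of the chromosomal passenger complex, had 11.71 and 11.65 in controls and 11.51 and 11.55 after proline, a change of -0.15 ± 0.11 with an adjusted p of 0.533 in limma. Cdc20 had 12.59 and 12.51 in controls and 12.62 and 12.61 after proline, a change of 0.06 ± 0.11. Plk1, Aurka and Aurkb had 0.01, 0.11 and -0.14, and Ccna2, Ccnb2 and Cdk1 had -0.05, 0.02 and 0.05. Ndc80, which links kinetochores to microtubules, had 9.57 and 8.89 in controls and 9.11 and 8.74 after proline, a change of -0.30 ± 0.28 with overlapping groups. Cenpa, the centromeric histone, had 0.22 and Top2a 0.19.

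Probe sets of the same gene did not always give the same direction. Of 17 replication genes with several probe sets, 10 had all of them on 1 side of 0, and of 12 such mitosis genes 7 did. Top2a had 0.19 in the probe set used and -0.19 and -0.37 in its others. When the median signal over a gene's probe sets was taken in place of the brightest, the sign turned for Top2a, Mcm6, Mcm7, Cdt1, Rrm2, Aurka and Cenpa. The replication and mitosis classes are therefore compared below on the chosen probe sets, with that limit.

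The classes were compared by their mean log2 signal in each biological replicate. Replication genes had 11.40 and 11.31 in controls and 11.30 and 11.20 after proline, that is 11.35 ± 0.06 and 11.25 ± 0.07 (SD, n = 2). Mitosis genes had 11.03 and 10.99 in controls and 10.86 and 11.10 after proline, that is 11.01 ± 0.03 and 10.98 ± 0.17 (SD, n = 2). The difference between the classes was 0.34 ± 0.03 in controls and 0.27 ± 0.24 after proline (SD, n = 2), and its change of -0.06 was smaller than the spread between the proline replicates. No p is given for these means, since the genes were chosen with earlier results known and an exact permutation test of 2 against 2 cannot go below 0.33. In bulk RNA, the share of cells in a phase of the cycle and the RNA per cell cannot be told apart.

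**Figure D4:**
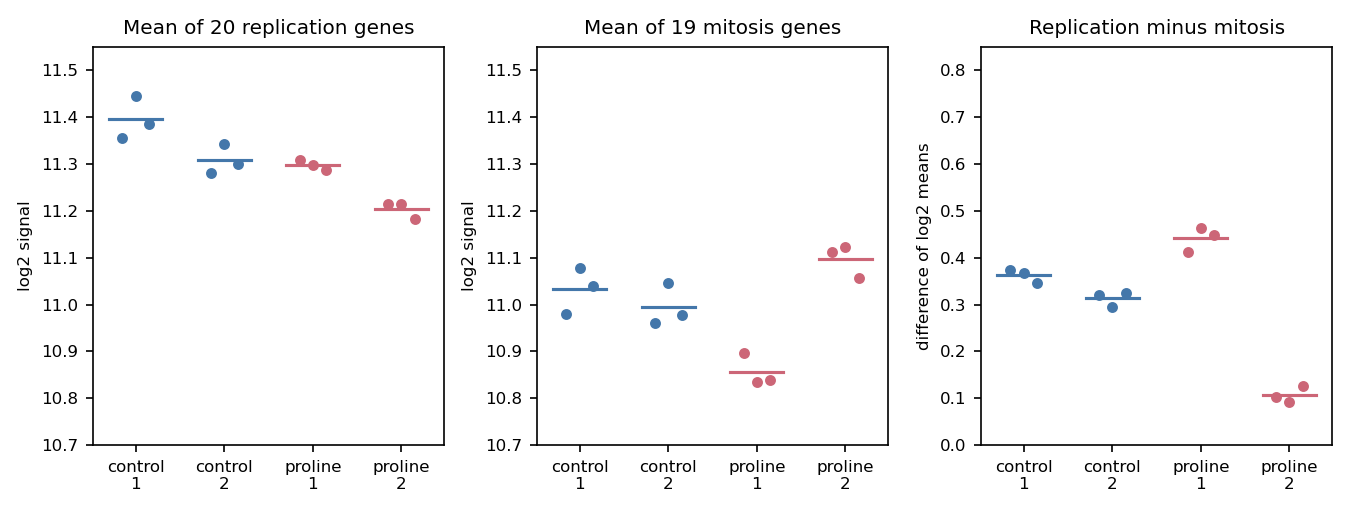
Mean log2 signal of the replication genes and of the mitosis genes on each of the 12 arrays, by group and biological replicate. The mitosis mean is lowest in proline replicate 1 (10.86) and highest in proline replicate 2 (11.10), while the replication mean moves from 11.30 to 11.20 between the same replicates.

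On the probe sets used, the wider spread between the proline replicates lay in the mitosis genes. This pattern was looked at after the values were seen. Proline replicate 2 was above proline replicate 1 for 14 of 19 mitosis genes and 6 of 20 replication genes, against 44.9% of all genes. Control replicate 2 was above control replicate 1 for 9 of 19 and 7 of 20, against 47% of all genes. A log2 gap of at least 0.32 in favour of proline replicate 2 was found in 9 of 19 mitosis genes (47.4%), 1 of 20 replication genes (5%) and 10.9% of all genes. The 9 mitosis genes were Aurkb, Plk1, Ccnb2, Cenpa, Mad2l1, Cdk1, Kif20a, Ccna2 and Aurka. They encode the Aurora and Polo kinases, cyclins A2 and B2 with their kinase, Mad2, the centromeric histone and a kinesin.

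Aurkb, the kinase of the chromosomal passenger complex, had the widest gap, with 8.73 in proline replicate 1 and 9.90 in replicate 2 around controls of 9.25 and 9.67. Its other probe set gave a gap of 0.99 beside the 1.17 of the one used. Plk1 had 10.85 and 11.51 after proline around controls of 11.21 and 11.15, and Ccnb2 had 11.10 and 11.64 around 11.31 and 11.38. In all 3 genes the control values lay between the proline values. Kif11 and Ndc80 went the opposite way, by -0.43 and -0.37, although the other probe sets of Kif11 gave 1.12 and -0.07. The opposite way was also taken by Cdt1 and Pole among the replication genes, by -0.52 and -0.44.

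In other probe sets and other genes, the count for the proline replicates was closer to an even split. The count for the control replicates was less even in the other genes. Among the 17 further probe sets of the mitosis genes, 9 were higher in proline replicate 2, with a median gap of 0.02, and 7 of the 12 above the dim level were. Of the 28 further probe sets of the replication genes, 10 were higher, with a median gap of -0.09, and 9 of the 23 above the dim level were. Some of these had wide gaps, with 1.20 for Rrm1, 0.73 for Rrm2 and 0.68 for Rfc3. The probe sets used for these 3 genes gave 0.06, -0.04 and 0.36. Among the further mitosis genes, 40 of 61 were higher in proline replicate 2, with a median gap of 0.08, against 44.9% of all genes. Among the further replication genes 17 of 46 were, with a median of -0.13. Control replicate 2 was above control replicate 1 in 15 of 61 and 13 of 46 of them, with medians of -0.15 and -0.17, against 47% of all genes. Taken by replicate, mitosis genes in proline replicate 1 were below control replicate 1 in 14 of 19 and below control replicate 2 in 13 of 19. In proline replicate 2 they were below either control in 7 of 19. Of all 18193 genes, 9592 and 9270 were below control replicates 1 and 2 in proline replicate 1, and 10226 and 10024 in proline replicate 2. Array controls also moved between the replicates. For beta-actin, the 5' probe sets minus the 3' ones, which read RNA integrity and labelling, gave -0.90 and -0.50 in controls and -0.66 and -0.24 after proline, and 18S rRNA read 10.74 and 10.04 in controls and 9.74 and 8.35 after proline. Poly-A spike-ins read 7.75 and 7.42 in control cells and 7.45 and 7.05 after proline. The part of these array controls in the gaps was not tested.

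**Figure D5:**
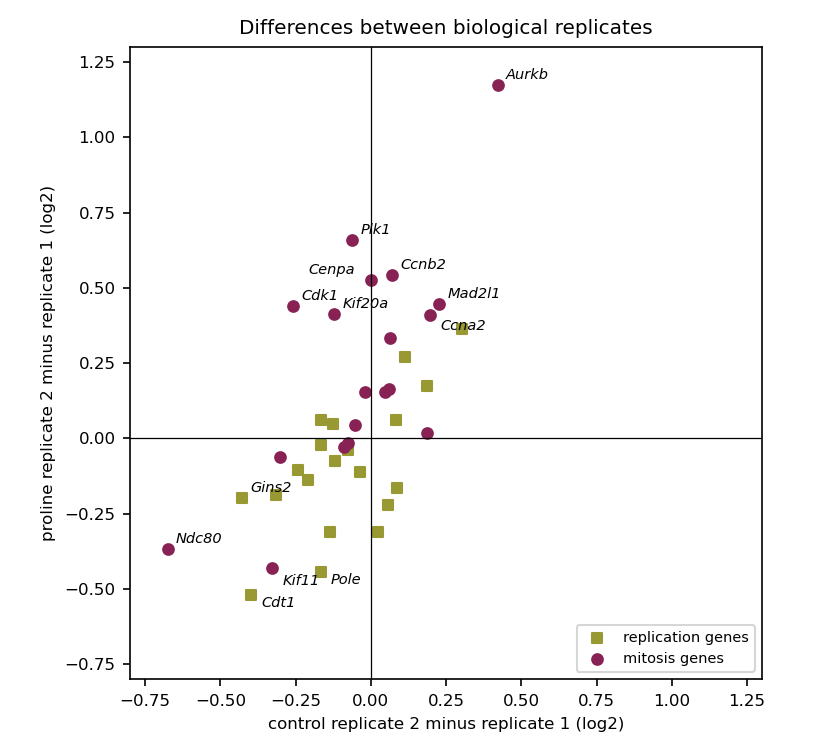
Log2 difference between biological replicates 2 and 1 of the proline group against the same difference in the control group, 1 point per gene, replication genes as squares and mitosis genes as circles. Aurkb stands highest at 1.17, and 14 of 19 mitosis genes lie above 0 on the vertical axis against 6 of 20 replication genes.

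Further genes of the same processes were read from lists written without regard to their change, though with earlier results of these data known. None of 46 further replication genes and none of 61 further mitosis genes passed in limma, against 4.36% of all genes, with 8 and 7 at an unadjusted p under 0.05, against 22.1%. Their median log2 fold changes were -0.06 and -0.14, and 34 of 46 and 48 of 61 were below 0, against 56.1% of all genes. The smallest p belonged to Asf1b, a histone chaperone, and Ticrr, which acts in origin firing, with -0.64 ± 0.16 and -0.83 ± 0.21 and adjusted p of 0.106 and 0.111 in limma. Among the mitosis genes it belonged to Cenpt, a kinetochore protein, and Kif20b, a kinesin, with -0.57 ± 0.11 and -0.57 ± 0.12 and adjusted p of 0.0681 and 0.0859. The 13 measured genes of the replication checkpoint had a median of -0.41, with 10 below 0 (56.1% in all genes), none past the threshold in limma (4.36%) and 5 at an unadjusted p under 0.05 (22.1%). Hus1, of the checkpoint clamp, had -0.53 ± 0.15 and Rad17, its loader, -0.45 ± 0.14, with adjusted p of 0.141 and 0.156 in limma.

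Of 21 transcription factors and cofactors that act at E2F and CHR promoters, 2 passed, both lower, against 4.36% of all genes in either direction and 1.34% lower. Rbl2, which encodes the pocket protein p130 of the DREAM complex, had log2 signals of 7.22 and 7.54 in controls and 5.72 and 5.97 after proline. It fell by 1.54 ± 0.17 on the log2 scale, with an adjusted p of 0.0305 in limma. E2f2, an activating E2F, had 7.995 and 7.89 in controls and 6.84 and 7.07 after proline, and fell by 0.99 ± 0.14 with an adjusted p of 0.0405. The groups of both genes were well apart, while the median over the 21 genes was 0.03. With the median over probe sets Rbl2 did not pass (-1.40, adjusted p = 0.0654 in limma, with a range of 1.17e-05 to 0.119 over all alternatives). Without any 1 biological replicate no gene on the arrays passed in limma, with 2766 to 3676 at an unadjusted p under 0.05, and the log2 fold changes were then -1.70 to -1.38 for Rbl2 and -1.10 to -0.87 for E2f2.

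Markers were checked for the labelled cell type and for others that such a culture could hold. The 10 ES cell markers had a mean log2 signal of 12.54 and 12.52 in controls and 11.70 and 11.81 after proline. The highest were Dppa5a and Pou5f1, and 2 passed in limma, Esrrb and Zfp42, both lower. Among all genes 4.36% passed, 3.03% higher and 1.34% lower. Fibroblast markers were at 5.06 to 5.38 in controls and 5.03 to 5.51 after proline, led by Thy1 and Col1a2, and endoderm markers at 5.49 to 5.62 and 5.86 to 5.87, led by Dab2 and Amn, with none of 10 past the threshold in either list. Neural markers, of which 7 of 8 were measured, were at 5.87 to 6.09 and 6.25 to 6.37. They were led by Nes, which rose, and Tubb3, which fell, and only these 2 passed in limma. Trophoblast markers were at 6.03 to 6.64 and 6.79 to 7.25, led by Tfap2c and Krt8. Of these 8 genes 1 passed in limma, Eomes, which rose. Tfap2c had a log2 fold change of -0.69, and Krt8 had 7.17 and 10.40 in controls and 9.71 and 11.97 after proline. The part of these markers in the signals of the replication and mitosis genes was not tested.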

How the data were processed

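The authors deposited normalized log2 signals for 45101 probe sets on 12 arrays. MAS5 and RMA were used, per the submitters' processing notes, without a version or which of them made the table. Its values run from 2.10 to 14.8, with array medians of 5.98 to 6.03. No detection calls were used, and precision is limited by the 2 biological replicates per group.

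Gene names come from the platform annotation, in which 34945 probe sets have 1 symbol, 932 several and 9160 are unnamed here, and 64 are array controls. A gene is its brightest probe set. The 3 arrays of a biological replicate were averaged, and 2 proline means were compared with 2 control means by limma 3.58.1 in R 4.3.3 (lmFit, eBayes, two-sided, no covariate, 2 residual and 2.60 prior degrees of freedom), with Benjamini-Hochberg adjustment over 18193 genes and a threshold of 0.05. The procedure was tested on simulated data. Plots were drawn with matplotlib 3.10.9.

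The members and lists were chosen with earlier results of these data known. By rule, replicate values are given for the 4 genes of a class with the smallest p and for the gene of each role with the largest change. Other lists give genes past the threshold, or else the 2 with the smallest p, and marker lists the 2 highest genes. Aurkb, Plk1, Ccnb2 and other genes named for their gaps between replicates were picked after their values were seen. Alternatives tried were quantile normalization, centring on array medians, a filter on dim genes, the median over probe sets, a random block over the 12 arrays, a block for the replicate number, an intensity trend and leaving out each biological replicate. Promoters are RefSeq's.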

Additional observations from a re-analysis of the deposited data

How the results depend on the processing

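With 2 biological replicates per group, the adjusted p-values rest on limma's variance model, and no detection calls were used, so dim and absent transcripts look alike. Quantile normalization, median centring, leaving out dim genes and an intensity trend changed no sign of the 39 genes and no call among them. The count over all genes, 794, became 351 with the median over probe sets, 3987 with a random block over the 12 arrays, 2039 with the replicate block and 0 without any 1 biological replicate (limma). Among its 3987 of 18193 genes, the random block called 2 replication genes, Gins2 higher and Orc1 lower, and 2 mitosis genes, Bub1 higher and Bub1b lower. The replicate block called 1 replication gene, Orc1 (adjusted p = 0.0465 in limma, from 0.00328 to 0.254 over all alternatives); with only 2 pairs the numbers are not shown to pair the cultures (deviations correlated at 0.338 across genes). The cause of these shifts was not tested.

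The median over probe sets moved the replication median from -0.09 to -0.12 and turned Mcm6 to -0.16, Mcm7 to 0.19, Cdt1 to 0.0325, Rrm2 to 0.0941, Aurka to -0.10, Cenpa to -0.05 and Top2a to -0.37; the class difference of -0.06 became 0.04. Leaving out 1 biological replicate gave replication medians from -0.17 to -0.0344, mitosis medians from -0.17 to 0.16 and class differences from -0.23 to 0.10, positive without proline replicate 2. It also turned 16 genes, with these ranges: Mcm2 -0.29 to 0.0263, Mcm3 -0.0082 to 0.20, Mcm6 -0.0017 to 0.12, Mcm7 -0.12 to 0.12, Cdt1 -0.34 to 0.18, Pcna -0.0443 to 0.14, Mad2l1 -0.29 to 0.16, Plk1 -0.32 to 0.33, Aurka -0.0515 to 0.28, Aurkb -0.73 to 0.44, Ccna2 -0.25 to 0.16, Ccnb2 -0.25 to 0.29, Cdk1 -0.17 to 0.27, Kif11 -0.25 to 0.18, Cenpa -0.0405 to 0.49 and Ndc80 -0.64 to 0.0357. Intervals within 2-fold numbered 36 of 39 as reported, 35 with the median over probe sets, 39 with either block and 31 to 34 without 1 replicate.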
